A study of Mus musculus with 6 samples.

Results

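The genes described here are Nr4a1, Nr4a2, Nr4a3, Egr1, Egr2 and Egr3, 2 small families of transcription factors whose mRNA is made within a short time of T cell receptor (TCR) engagement. They were taken by symbol, with earlier results of these data known, and are 6 of the 27998 genes listed in every library. The libraries hold single-cell RNA profiles of invariant natural killer T (iNKT) cells, innate-like T cells that recognise lipids presented by CD1d. They were sorted from liver, spleen and lymph nodes of wild-type (WT) C57BL/6 mice aged 5 weeks, with 2 libraries per organ. Every group was depleted of CD8+ and B220+ cells and stained for TCR-β and with a CD1d tetramer, and none carried a treatment or an allele other than WT. The methods call both libraries of an organ biological repeats, while the labels give no sex, batch or number of mice per library, and the p-values measure the spread between these libraries. The labels name nuclear RNA as the molecule, whereas the methods describe sorted cells.

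The Nr4a genes encode orphan nuclear receptors that bind DNA without a known natural ligand, and the Egr genes encode zinc finger factors. Both families are induced downstream of calcium, calcineurin and MAP kinase signals from the TCR, and Nr4a1 is widely used as a reporter of TCR signal strength. In the thymus, Egr2 is needed early in the iNKT lineage and activates Zbtb16, which encodes the lineage factor PLZF. In mature T cells both families are linked to tolerance and to expression of Pdcd1, which encodes the inhibitory receptor PD-1. Some members are also immediate early genes that handling of cells can induce.

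The 3 Nr4a genes and Egr2 shared a short sequence element, TGACG, upstream of the start sites shown here, and Egr1 and Egr3 were not examined. The stretches below belong to the 3 Nr4a genes and Egr2, the members with a RefSeq promoter window here, and show which response elements they share. The windows are on GRCm38.p6, matched 4 of the 6 genes, are written 5′ to 3′ on the strand of the gene, and end at or before the start site. Capitals mark the cAMP response element half-site TGACG or its reverse complement, the Egr site GCGNGGGCG or its reverse complement and, in Egr2, a CArG box, the binding site of serum response factor. The Nr4a1 stretch is chr15:101266596-101266845 (+), that of Nr4a2 is chr2:57124004-57124253 (−) and that of Egr2 is chr10:67537619-67537868 (+). The Nr4a3 stretch, chr4:48045055-48045152 (+), is the upstream 98 bases of its window and holds 3 of the 4 half-sites.
Nr4a1: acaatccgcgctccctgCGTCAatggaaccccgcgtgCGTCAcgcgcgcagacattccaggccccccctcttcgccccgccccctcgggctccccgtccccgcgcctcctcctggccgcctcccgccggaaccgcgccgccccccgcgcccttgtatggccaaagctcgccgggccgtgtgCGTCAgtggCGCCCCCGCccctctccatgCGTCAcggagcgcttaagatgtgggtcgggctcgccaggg
Nr4a2: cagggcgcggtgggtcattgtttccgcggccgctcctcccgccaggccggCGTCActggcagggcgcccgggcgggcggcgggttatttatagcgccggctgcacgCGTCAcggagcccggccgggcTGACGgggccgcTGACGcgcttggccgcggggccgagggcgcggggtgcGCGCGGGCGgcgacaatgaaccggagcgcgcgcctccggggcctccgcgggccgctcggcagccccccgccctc
Nr4a3: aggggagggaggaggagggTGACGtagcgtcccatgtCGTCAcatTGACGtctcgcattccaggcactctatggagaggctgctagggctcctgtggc
Egr2: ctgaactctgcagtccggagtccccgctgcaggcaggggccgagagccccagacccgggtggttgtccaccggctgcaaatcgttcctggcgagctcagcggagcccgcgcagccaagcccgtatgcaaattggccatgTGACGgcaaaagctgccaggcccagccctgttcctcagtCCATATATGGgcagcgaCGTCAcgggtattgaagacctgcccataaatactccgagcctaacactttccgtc

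Within 250 bases upstream of the start site, Nr4a1, Nr4a2 and Nr4a3 each held 4 copies of TGACG on either strand. Of all 32851 RefSeq windows of that length, 17.8% held at least 1 copy and 0.137% held 4 or more. At least 2 copies stood in 3.9% of windows. Egr2, which has 5 annotated windows, held 2 copies in the one shown, with a CArG box 72 to 63 bases before the start. Of its other windows, 2 overlap the one shown and also held 2 copies, and 2 held none, 1 of which also had no CArG box. A CArG box stood in 1.47% of windows, and GCGNGGGCG, which Nr4a1 and Nr4a2 held once each, in 4.7%. The full element TGACGTCA (1.55% of windows) and AAAGGTCA, the Nr4a monomer site (1.34%), were in none of these windows on either strand. These matches describe letters in a window and are not measured binding.

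After filtering, the libraries held 2638 to 2861 cells each, 16532 of 16587 barcodes. The median count of unique molecular identifiers (UMIs) per cell was 3592 and 2880 in liver, 1724 and 1554 in spleen, against 1730.5 and 1470 in lymph node. T cell markers (Cd3d, Cd3e and Cd3g) were at 4331 to 5582 CPM (UMIs of a gene as parts of 1000000 UMIs of the library or class) in every library, and no pair of libraries shared more than 20 barcodes. Xist RNA was at 0 in both lymph node libraries and RNA of 4 Y-chromosome genes at 0 in the other libraries, so this split and the organ cannot be told apart in any comparison with lymph node. The 5 erythroid markers summed to 557.5 to 864.9 CPM in liver, where those genes were removed before testing except for Alas2.

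The Nr4a and Egr mRNAs were rare in single cells, and a larger share of lymph node cells than of other cells held any of them. A UMI of at least 1 of the 6 genes was found in 6.36% and 7.76% of liver cells, 5.06% and 4.52% of spleen cells, and 18.9% and 17.0% of lymph node cells. After every cell was thinned to 1000 UMIs, these shares became 2.04% and 2.60%, 2.82% and 2.45%, and 11.3% and 11.1%. The lymph node libraries lay above all 4 others on both scales, while the order of liver and spleen turned over for some libraries once depth was equalised. Nr4a1 was in 285 of 2638 and 267 of 2848 lymph node cells, of which 2140 and 2364 held no member. No cell carried a UMI of more than 4 members.

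Nr4a1 (ENSMUSG00000023034, chr15:101254269-101274795, + strand) encodes the receptor Nur77. It had 43 and 77 UMIs in liver, 21 and 27 in spleen, against 353 and 302 in lymph node. In TMM-scaled CPM, the level was 5.79 and 12.6 in liver (mean 9.17 ± 4.79, SD, n = 2), 5.50 and 7.82 in spleen (6.66 ± 1.64), against 96.6 and 83.7 in lymph node (90.1 ± 9.09). Both lymph node libraries lay above all others, and liver and spleen overlapped. Nr4a1 was lower than in lymph node by a log2 fold of -3.33 (SE 0.23, edgeR adjusted p = 5.19e-09) in liver and -3.76 (SE 0.27, edgeR adjusted p = 1.77e-08) in spleen. The liver fold was -2.84 without liver replicate 1 and -3.95 without liver replicate 2. In liver against spleen it differed by 0.44 (SE 0.35, edgeR adjusted p = 0.382), which did not pass the test. That value turned on the liver replicates, as it was 0.93 without replicate 1 (edgeR adjusted p = 0.0284) and -0.18 without replicate 2.

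Nr4a2 (ENSMUSG00000026826, chr2:57106830-57124003, − strand) encodes the related receptor Nurr1. Its counts were 1 and 0 UMIs in liver, 4 and 2 in spleen, against 41 and 47 in lymph node. The gene was therefore close to absent outside the lymph node libraries, and the groups did not overlap. It passed the filter on low counts through the lymph node libraries alone, so a difference from them was built into its inclusion and its values are given without a test. The pooled level in lymph node was 157 times that in liver (95% exact interval 27.5 to 6273, counting error only), and 14.9 times that in spleen (6.56 to 41.6). The fitted log2 fold in spleen against lymph node was -3.83 (SE 0.50). Spleen was 10.6 times liver (1.28 to 486.1) on 6 UMIs against 1. The fitted log2 fold in liver against spleen moved between -4.81 and -2.37 as single libraries were left out. These intervals pool the UMIs of both libraries of an organ. They do not measure the spread between libraries and are not a test.

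Nr4a3 (ENSMUSG00000028341, chr4:48045153-48086447, + strand) encodes the receptor Nor-1. Its level was 3.63 and 7.66 TMM-scaled CPM in liver (5.65 ± 2.85, SD, n = 2), 6.55 and 5.50 in spleen (6.03 ± 0.74), against 20.8 and 13.9 in lymph node (17.3 ± 4.90). Lymph node again lay above both other organs, which overlapped. The log2 fold against lymph node was -1.64 in liver (SE 0.30, edgeR adjusted p = 8.19e-05) and -1.52 in spleen (SE 0.33, edgeR adjusted p = 0.00125). The liver fold was -1.17 without liver replicate 1 and -2.24 without liver replicate 2. The spleen call was lost without lymph node replicate 1, where the fold was -1.19 (edgeR adjusted p = 0.0543).

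Egr1 (ENSMUSG00000038418, chr18:34859823-34864984, + strand) had fitted folds against lymph node nearer 0 than those of the other tested members, a contrast between genes that was not tested. It stood at 19.7 and 25.4 TMM-scaled CPM in liver (22.5 ± 4.09, SD, n = 2), 24.1 and 22.6 in spleen (23.3 ± 1.06), against 42.7 and 39.4 in lymph node (41.0 ± 2.34). Lymph node did not overlap the other organs, whose values interleaved. The log2 fold was -0.87 in liver (SE 0.17, edgeR adjusted p = 0.000124) and -0.81 in spleen (SE 0.18, edgeR adjusted p = 0.00140) against lymph node.

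Egr2 (ENSMUSG00000037868, chr10:67535475-67542188, + strand) had 13 and 32 UMIs in liver, 14 and 14 in spleen, against 53 and 41 in lymph node. In TMM-scaled CPM this was 1.75 and 5.22 in liver (3.48 ± 2.45, SD, n = 2), 3.67 and 4.06 in spleen (3.86 ± 0.28), against 14.5 and 11.4 in lymph node (12.9 ± 2.22). The liver replicates lay on either side of both spleen values, and lymph node was above all of them. The log2 fold against lymph node was -1.93 in liver (SE 0.36, edgeR adjusted p = 8.98e-05) and -1.74 in spleen (SE 0.39, edgeR adjusted p = 0.00176). Without liver replicate 1 the fold in liver was -1.30, and without liver replicate 2 it was -2.86.

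Egr3 (ENSMUSG00000033730, chr14:70077203-70082614, + strand), which acts beside Egr2 in T cell tolerance, had 3 and 0 UMIs in liver, 1 and 1 in spleen, against 1 and 5 in lymph node. It did not pass the filter and was not tested. The pooled lymph node level was 3.57 times that in liver (95% exact interval 0.762 to 22.1) and 3.04 times that in spleen (0.544 to 30.8), so no difference was detectable at this depth.

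**Figure D1:**
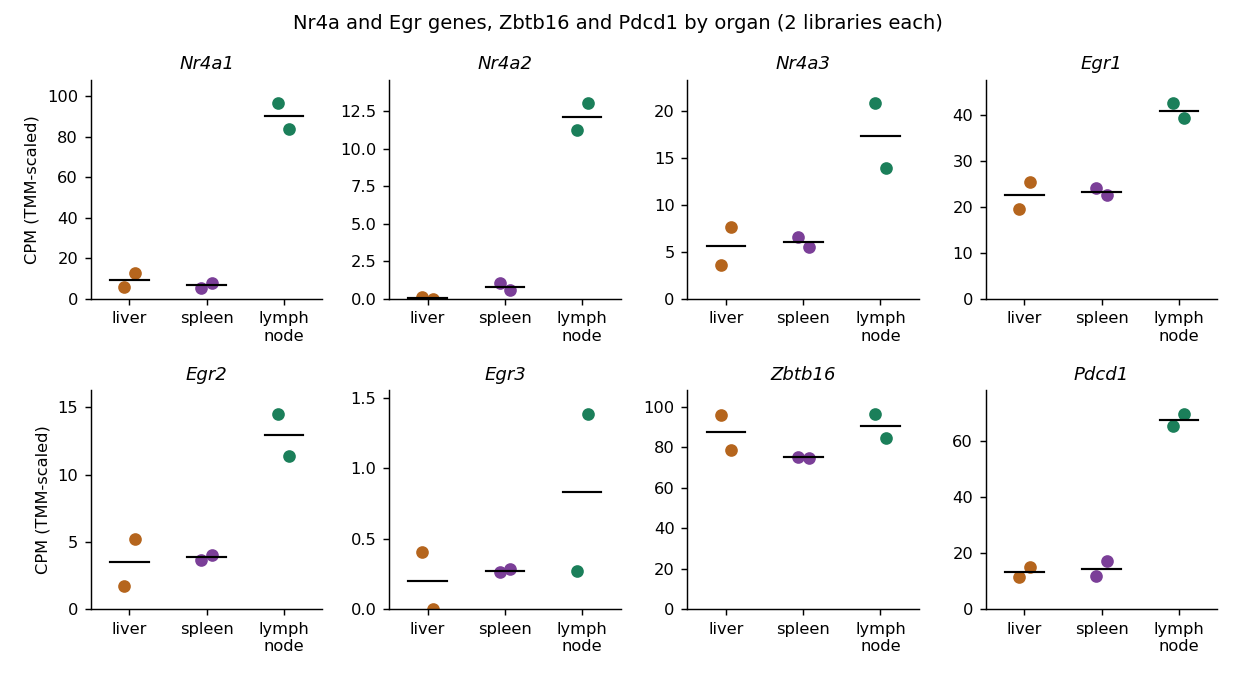
TMM-scaled CPM (vertical axis, linear from 0, its own scale in each panel) of the 6 genes, Zbtb16 and Pdcd1 in liver, spleen and lymph node; each point is 1 library and each bar the mean of 2. Nr4a1 stands at 96.6 and 83.7 in lymph node and at most 12.6 elsewhere, whereas Zbtb16 lies between 74.7 and 96.6 in all 6 libraries.

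Nr4a1, Nr4a3, Egr1 and Egr2, which passed the filter on low counts without the lymph node libraries, were each lower in liver than in lymph node, where 37.6% of 10250 genes passed the test, 19.6% as lower and 18% as higher in liver. They were also each lower in spleen than in lymph node, where 18.2% of genes passed, 10.3% as lower and 7.9% as higher in spleen. These comparisons share the lymph node libraries. Between liver and spleen, where 25.8% of genes passed, 13% as lower and 12.8% as higher in liver, none of Nr4a1, Nr4a3, Egr1 and Egr2 did. In sums over a library, fewer cells with the mRNA and less mRNA per cell cannot be told apart.

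**Figure D2:**
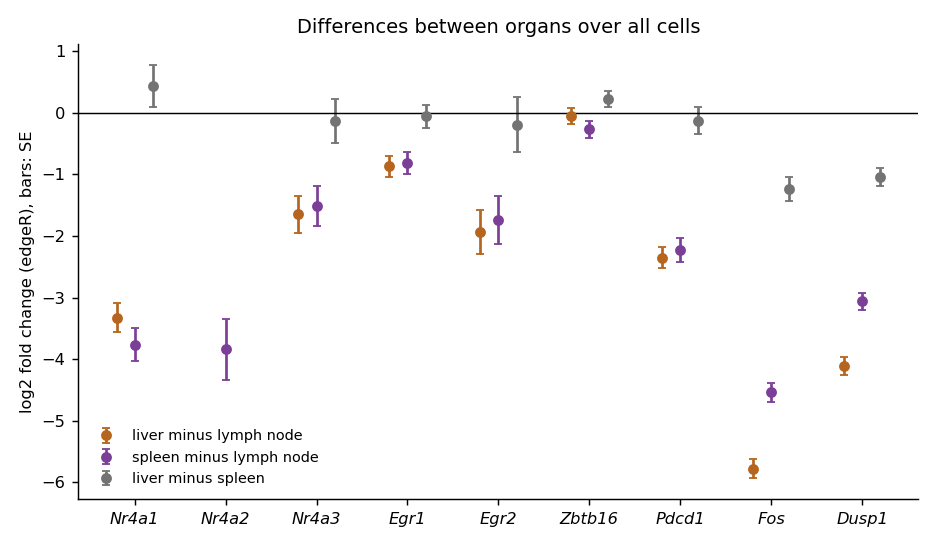
Fitted log2 fold changes with their SE over all cells for 5 members, Zbtb16, Pdcd1, Fos and Dusp1 in 3 organ comparisons, each organ having 2 libraries. Nr4a1, Nr4a3, Egr1 and Egr2 lie below 0 against lymph node, from -0.81 (Egr1) to -3.76 (Nr4a1). Nr4a2 is drawn for spleen minus lymph node alone (-3.83, without a test), because liver held 1 UMI of it, and Zbtb16 lies at -0.05 and -0.27.

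The share of cells with a UMI, after thinning to 1000 UMIs per cell, also placed lymph node above the other organs for Nr4a1, Nr4a3, Egr1 and Egr2. For Nr4a1 it was 0.357% and 0.736% in liver, 0.310% and 0.603% in spleen, against 5.86% and 5.93% in lymph node. Liver and spleen overlapped, and lymph node did not overlap either. For Nr4a3 the share was 1.64% and 0.975% in lymph node and at most 0.464% elsewhere. For Egr2 it was 0.885% and 0.636% in lymph node and at most 0.310% elsewhere. For Egr1 the shares were 1.43% and 1.61%, 1.82% and 1.41%, and 2.95% and 3.22%, and without thinning they were 4.32% and 4.44%, 3.15% and 2.75%, and 5.08% and 4.46%. The Egr1 shares of liver thus came close to those of lymph node when depth was not equalised. An exact permutation test over the 15 ways to pair 6 libraries cannot give p below 0.0667, and Nr4a1 had p = 0.133, Nr4a3 0.133, Egr1 0.2, Egr2 0.2 and Egr3 0.333 (exact permutation). Without thinning, Nr4a1 was found in 1.18% and 2.10% of liver, 0.696% and 0.904% of spleen, and 10.8% and 9.38% of lymph node cells. No cell type that should lack these mRNAs was present in number to measure the share that free RNA gives, since the cluster with B cell and myeloid markers held 24 cells.

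Most AP-1 genes, which encode the dimer partners Fos and Jun and their relatives and which are induced by TCR signals and by stress, were also lower in liver and spleen than in lymph node. Of 8 AP-1 genes tested, 7 were lower and 1 higher in liver than in lymph node (median log2 fold -3.03, against 0.01 over all genes). In spleen 7 were lower (median -2.52, all genes 0.00). These counts and medians include Atf3, at 0.538 and 0.163 TMM-scaled CPM in liver, 0 in spleen, and 10.1 and 11.9 in lymph node. Atf3 passed the filter on low counts through the lymph node libraries alone, so its difference was built into its inclusion. The gene higher in liver was Batf, at 123.6 and 123.9 TMM-scaled CPM in liver against 99.3 and 94.2 in lymph node (log2 fold 0.35, SE 0.12, edgeR adjusted p = 0.0178), named after its values were seen. Fos stood at 12.4 and 8.32 TMM-scaled CPM in liver, 26.5 and 22.9 in spleen, against 565.5 and 585.8 in lymph node. Lymph node lay above all other values, and spleen lay above liver. Of 19 genes of stress and cell dissociation, 10 were lower and 4 higher in liver (median -0.45, where 37.6% of all genes passed), and 14 were lower in spleen (median -0.71, where 18.2% of all genes passed). Dusp1, which encodes a MAP kinase phosphatase, ranged from 52.2 to 71.3 in liver, 114.4 to 141.1 in spleen, against 1008 to 1128 in lymph node. Hspa1a, a heat shock gene, had another pattern, with 31.0 and 38.3 in liver, 0.524 and 0.290 in spleen, against 46.5 and 47.7 in lymph node. Fos and Dusp1 differed from lymph node in the direction of the members, Batf and 4 of the stress genes in liver did not, and the part of early genes in the result was not tested.

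The members were also counted in thinned cells that held no UMI of Fos, Jun, Dusp1 or Hspa1a, a subset chosen after the data were seen. It kept 773 of 2373 and 712 of 2360 lymph node cells and 2085 to 2494 cells of each other library. Nr4a1 was found in 0.366% and 0.601% of these cells in liver, 0.240% and 0.611% in spleen, against 3.62% and 3.09% in lymph node, which did not overlap the other organs. Nr4a3 did overlap, with 1.16% and 0.421% in lymph node and 0.122% to 0.481% elsewhere. Egr2 was found in 0.647% and 0.421% of lymph node cells, on 5 and 3 cells, and in at most 0.336% elsewhere. A cell without a UMI at this depth may still hold the mRNA, so the part of early gene induction was not tested.

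Other genes of the pathway moved in both directions. Over all genes, 19.6% were lower and 18% higher in liver than in lymph node, and 10.3% lower and 7.9% higher in spleen. Of 21 TCR-induced genes tested, 7 were lower and 6 higher in liver than in lymph node (median log2 fold -0.16), and 9 were lower and 3 higher in spleen (median -0.25). Spry1, among the lower genes in both, passed the filter only with the lymph node libraries (5.198 and 5.267 there, 0.2619 to 1.159 elsewhere). Its difference was built into its inclusion, and these counts and medians include it. Nfkbid, which encodes a nuclear IκB protein, was at 56.3 and 64.6 in liver, 38.8 and 41.1 in spleen, against 109.4 and 88.7 in lymph node. Of 12 genes linked to Egr or Nr4a in tolerance, 7 were lower and 3 higher in liver (median -0.68), and 6 were lower and 1 higher in spleen (median -0.96). Tox2, among the lower genes in liver, passed the filter only with the lymph node libraries (4.38 and 5.82 there, 0.326 to 2.90 elsewhere). The tolerance list includes Pdcd1, which had 11.7 and 15.0 in liver, 11.8 and 17.4 in spleen, against 65.7 and 69.9 in lymph node. The log2 fold of Pdcd1 against lymph node was -2.35 in liver (SE 0.18, edgeR adjusted p = 1.19e-12) and -2.22 in spleen (SE 0.19, edgeR adjusted p = 6.73e-11).

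Of 5 relatives and corepressors 4 could be tested, and of these Nab2 alone was lower in liver than in lymph node (37.6% of all genes passed), and Nab2 and Rxrb were lower in spleen (18.2% of all genes), the latter call being lost without lymph node replicate 2 (log2 fold -0.51). Nab2, a corepressor that binds Egr proteins, was at 49.5 and 43.2 in liver, 38.8 and 29.6 in spleen, against 72.5 and 77.9 in lymph node. Egr4, the fourth gene of its family, had 5 and 4 UMIs in lymph node and 0 elsewhere, which against a pooled floor of 3 counts is at least 5.35-fold higher than in liver and 3.04-fold higher than in spleen. The lower limits of the 95% exact intervals, which also take in the error of the lymph node counts, were 3.52 and 2.0. Of 12 upstream regulators, 2 were lower and 4 higher in liver, and 3 were lower and 2 higher in spleen, beside the same shares over all genes. Of 15 TCR-proximal signalling genes, 8 were higher and 3 lower in liver, and 3 were higher in spleen, among them Ubash3a, an inhibitor of TCR signalling, by 2.33 (SE 0.25, edgeR adjusted p = 6.34e-09) and 1.51 (SE 0.29, edgeR adjusted p = 0.000178). Between liver and spleen, where 12.8% of all genes were higher and 13% lower in liver, the genes higher and lower in liver numbered 9 and 2 of 21 TCR-induced genes, 3 and 2 of 12 tolerance genes, 1 and 3 of 8 AP-1 genes and 10 and 4 of 19 stress genes.

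Organs differ in their mix of iNKT cells, so the comparison was repeated within iNKT1-like cells, named after the T-bet+ class. A cluster took this name if it met no other list and its iNKT1 markers had a positive median log2 fold against the other cells. Clusters were made without the members and without the AP-1, TCR-induced, tolerance, corepressor and stress genes listed here. Il4, Izumo1r and Gadd45b are on these lists but stayed in, because they are also class markers. The class held 2202 and 2007 cells in liver, 1832 and 1853 in spleen, against 632 and 725 in lymph node, and different clusters made up most of it in each organ. Its membership depended on the clustering. At a resolution of 0.3 it kept 109 and 257 liver cells, while most others of liver came under the Gzma-like name. Most liver cells of the class also took that name in a run with other rounding of the arithmetic, so the class name is fragile in liver. Within it, Nr4a1 was at 3.58 and 8.54 TMM-scaled CPM in liver, 3.17 and 7.56 in spleen, against 107.3 and 97.0 in lymph node. Lymph node again stood apart, and liver and spleen overlapped. The log2 fold of Nr4a1 against lymph node was -4.14 in liver (edgeR adjusted p = 1.05e-17) and -4.27 in spleen (edgeR adjusted p = 2.08e-15), and both passed in all 14 alternatives. Leaving out liver replicate 1 or 2 moved the liver fold to -3.57 or -4.81, and leaving out spleen replicate 1 or 2 moved the spleen fold to -3.74 or -4.98.

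Nr4a2 had 20 UMIs in lymph node iNKT1-like cells, 3 in spleen and 1 in liver. Nr4a3 was lower in liver (log2 fold -2.18, edgeR adjusted p = 7.51e-05) and in spleen (-1.59, edgeR adjusted p = 0.0133). The liver fold was -3.92 at a resolution of 0.3, -1.63 without liver replicate 1 and -2.80 without liver replicate 2. The call in spleen was lost with DESeq2 (-1.60), at a resolution of 1.0 (-1.08), without lymph node replicate 1 (-1.65) or 2 (-1.51) and without spleen replicate 2 (-1.46). Egr1 stood at 22.4 and 27.2 in liver, 24.0 and 21.7 in spleen, against 44.0 and 52.0 in lymph node. Its groups in lymph node and elsewhere did not overlap, with log2 folds of -0.96 (edgeR adjusted p = 0.00178) and -1.07 (edgeR adjusted p = 0.00317). At a resolution of 0.3 the liver fold was -1.60. At a resolution of 1.0 these folds were -0.54 and -0.60 and did not pass, nor did they without lymph node replicate 2 (-0.84 and -0.93). Nr4a2 and Egr2 passed the filter on low counts in this class through the lymph node libraries alone, so no test of them is given. Egr2 had 0.943 and 4.40 in liver, 2.72 and 3.02 in spleen, against 6.88 and 9.84 in lymph node, and its fold in liver moved from -1.75 to 0.03 at a resolution of 0.3 and -3.92 at 1.0. Nr4a1, Nr4a3 and Egr1 were thus called lower in liver than in lymph node, where 20.3% of 9287 genes passed and 11.3% as lower, and in spleen, where 7.86% passed and 5.27% as lower. None of these 3 passed between liver and spleen in this class (23.1% of genes passed).

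In iNKT17-like cells, the RORγt+ class, no member passed the filter, because liver held 20 and 29 such cells and spleen 52 and 35. Of the 1838 genes that did, 16.6% passed the test in liver and 6.37% in spleen against lymph node, and 3.21% between liver and spleen. Nr4a1 had 0 UMIs in liver, 2 in spleen, against 80 and 90 in lymph node. Against a floor of 3 counts, its lymph node level of 63.7 CPM was at least 3.12-fold higher than in liver (lower limit of the 95% exact interval 2.51), and 4.77 times the spleen level (95% exact interval 1.30 to 39.7). For Egr1 the ratio was 4.96 over liver (0.868 to 198.2), on 1 UMI there, and 0.841 over spleen (0.372 to 2.35), so no difference was detectable.

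Within lymph node, the classes are described without a test. The level of Nr4a1 was 62.2 and 65.2 CPM in iNKT17-like cells, 103.5 and 94.0 in iNKT1-like cells, and 126.5 and 101.0 in an unnamed cluster of 1018 lymph node cells led by Ccl1 and Tnfsf8. The unnamed cluster was highest of these 3 and iNKT17-like cells lowest in both libraries. Egr2 stood at 5.45 and 3.62 in iNKT17-like cells, 6.63 and 9.54 in iNKT1-like cells, and 31.6 and 24.4 in the unnamed cluster. It was at 37.5 and 36.7 in interferon-like cells, on 4 and 2 UMIs, and at 21.0 and 15.9 in another unnamed cluster of 678 lymph node cells. The Ccl1 and Tnfsf8 cluster held 41.5% of the Egr2 UMIs of lymph node (39 of 94), 24.1% of those of Nr4a1, 52.6% of those of Pdcd1 and 18.7% of all UMIs. The iNKT17-like cells held 12.8% of the Egr2 UMIs, 36.3% of all UMIs and 60.6% of the Fos UMIs. Fos was at 978.9 and 923.0 CPM in iNKT17-like cells, 399.3 and 410.5 in the Ccl1 and Tnfsf8 cluster and 365.7 and 403.3 in interferon-like cells.

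**Figure D3:**
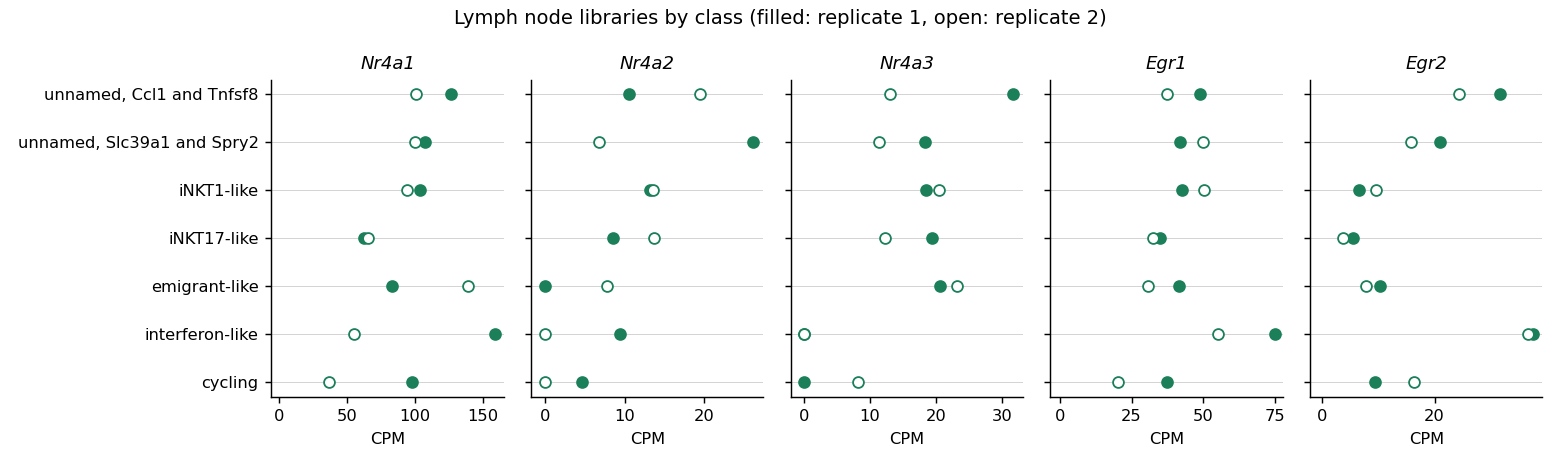
CPM (UMIs per 1000000, horizontal axis, linear) of 5 members in 7 classes of lymph node cells, with a filled circle for library 1 and an open circle for library 2. Nr4a1 is above 36 in every class and library shown, whereas Egr2 lies at 3.62 to 9.54 in iNKT17-like and iNKT1-like cells, at 24.4 and 31.6 in the unnamed cluster with Ccl1 and Tnfsf8, and at 36.7 and 37.5 in interferon-like cells.

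In liver, the low Nr4a counts were unevenly spread. The cluster named interferon-like, in which 6 interferon markers and 5 NF-κB markers were raised at least 2-fold and which other settings split, held 14.7% of all liver UMIs, 41.7% of the Nr4a1 UMIs (50 of 120), 40.5% of the Nr4a3 UMIs (30 of 74) and 35.6% of the Egr2 UMIs (16 of 45). It held 14.6% of the Egr1 UMIs. Nr4a1 was at 21.1 and 30.3 CPM there, against 3.80 and 8.69 in the iNKT1-like cells of the same libraries. In spleen the values were 13.3 and 24.0, on 2 and 4 UMIs, against 3.17 and 7.29. All 4 libraries had the higher level in the interferon-like class at this clustering, for which no test was made, and the direction turned in some libraries at others.

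The interferon-like class depended on the clustering, as other settings looked at after the data were seen showed. At a resolution of 1.0, NF-κB-like cells (295 and 361 in liver) formed a class of their own beside 73 and 112 interferon-like cells. The NF-κB-like class then held 39.2% of the Nr4a1 UMIs (47 of 120), 40.5% of the Nr4a3 UMIs and 51.1% of the Egr2 UMIs of liver on 14.5% of all its UMIs. Nr4a1 was at 20.5 and 28.65 CPM in NF-κB-like cells of liver, against 4.48 and 6.35 in iNKT1-like cells. In spleen it was at 28.7 and 56.75, on 8 UMIs, against 3.42 and 6.19. Every liver and spleen library was thus higher in the NF-κB-like class, which was not tested. Its markers include Nfkbia and Gadd45b, which were kept in the clustering. The interferon-like class then held 5.0% of the Nr4a1 UMIs, 8.11% of the Nr4a3 UMIs and 2.22% of the Egr2 UMIs of liver on 3.35% of all. At a resolution of 0.3 the interferon-like class had 53 and 75 liver cells and 5.0% of the Nr4a1 UMIs. Nr4a1 was then at 0 CPM in the interferon-like cells of liver library 1 at both of these resolutions. The iNKT1-like cells of that library had 4.48 (resolution 1.0) and 6.42 (resolution 0.3). Both spleen libraries were at 0 at a resolution of 0.3, against 5.30 and 6.78. Liver library 2 kept the higher level in interferon-like cells, at 24.6 against 6.35 (resolution 1.0) and 36.35 against 10.3 (resolution 0.3). So did both spleen libraries at a resolution of 1.0, at 9.48 and 14.1 against 3.42 and 6.19.

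**Figure D4:**
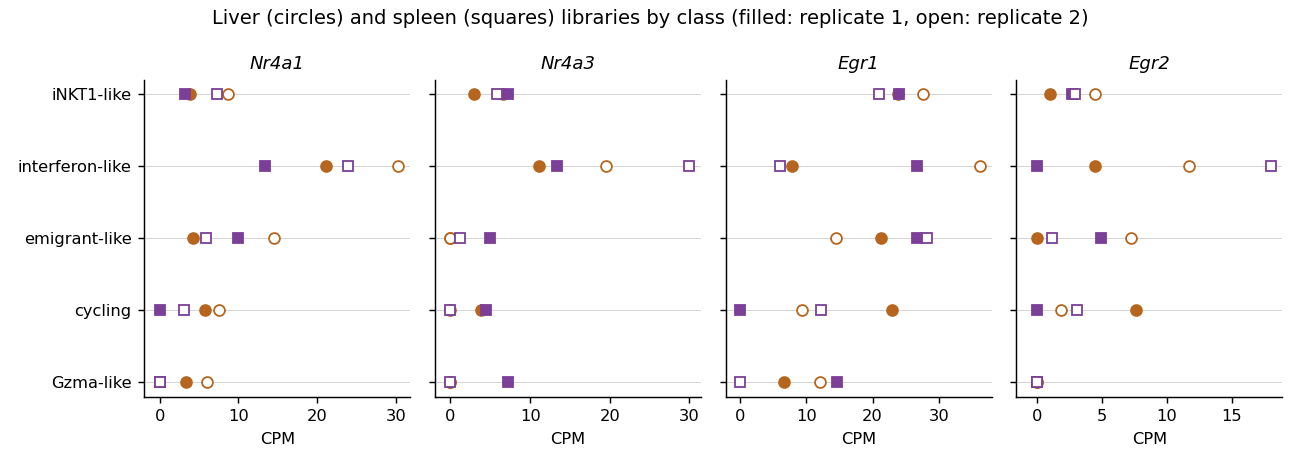
CPM (UMIs per 1000000, horizontal axis, linear) of Nr4a1, Nr4a3, Egr1 and Egr2 in 5 classes of liver (circles) and spleen (squares) cells, filled for library 1 and open for library 2. Nr4a1 is at 13.3 to 30.3 in interferon-like cells and 3.17 to 8.69 in iNKT1-like cells, whereas Egr1 differs between libraries in the interferon-like class.

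Members were found together in the same cell at low frequency. Cells are not replicates, and these shares were not tested. Of 85 lymph node cells with an Egr2 UMI, 27.1% also held Nr4a1, which 10.1% of all lymph node cells held. The libraries differed, with 19 of 48 cells in library 1 and 4 of 37 in library 2, where independence would give 5.19 and 3.47. Of 29 liver cells with Egr2, 37.9% also held Egr1, against 4.38% of all liver cells, with 3 of 9 in library 1 and 8 of 20 in library 2. Nr4a1 was held by 34.5%, against 1.64%. Most of the liver cells with Egr2 and Nr4a1 were in library 2, where 9 of 20 held both. Of 82 lymph node cells with Nr4a2, 2.44% held Egr1, against 4.76% of all, on 0 of 37 cells in library 1 and 2 of 45 in library 2. Cells with Egr2 had a higher median UMI count than all cells (1950 against 1593 in lymph node). In cells thinned to 1000 UMIs, over all libraries, Nr4a1 and Egr2 were together in 11 cells, where independence within each library would give 2.21, and Egr1 and Egr2 in 11, where it would give 1.41.

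Across the cells of a library, correlations with Zbtb16 and Pdcd1 were close to 0. With mRNAs this rare, the highest mean r of any gene examined was also low, at 0.106 for Nr4a1 and 0.115 for Egr2. Ranked by r among those genes, Pdcd1 stood at percentiles 98.1 and 80.1 for Egr2 in lymph node libraries 1 and 2. For Egr1 it stood at 98.4 and 14.1 there, and at 97.7 and 36.4 in liver, so the libraries differed. Cells of a library share their depth range and are not replicates, and r is on log-normalised UMIs of 2638 to 2861 cells. Averaged over libraries, r of Nr4a1 was -0.0027 with Zbtb16 and 0.0093 with Pdcd1. For Egr2 the means were -0.0013 and 0.0143, and for Egr1 0.0026 and 0.0163. For every member and library with a value, r lay between -0.03 and 0.0713. Zbtb16 itself was at 96.1 and 78.9 in liver, 75.4 and 74.7 in spleen, against 96.6 and 84.6 in lymph node. Its log2 folds against lymph node were -0.05 and -0.27 (edgeR adjusted p = 0.799 and 0.176). The spleen fold was -0.49 with cells thinned to 1000 UMIs. Within iNKT1-like cells Zbtb16 was higher in liver than in spleen (log2 fold 0.58, edgeR adjusted p = 0.00378). In iNKT17-like cells it was higher in liver than in lymph node (1.26, edgeR adjusted p = 0.00257), on 20 and 29 liver cells. No other organ comparison of Zbtb16 in these classes passed. In lymph node library 1, 10 of 48 cells with Egr2 held Pdcd1, as did 7 of 37 in library 2. Pdcd1 was found in 180 cells of each of these libraries, of 2638 and 2848 cells. Independence would give 3.275 and 2.338 cells with both. In liver 2 and 3 cells held both, where it would give 0.247 and 0.566. In spleen 0 and 0 cells did, where it would give 0.194 and 0.220. Depth was not equalised in these counts, and the difference was not tested.

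**Figure D5:**
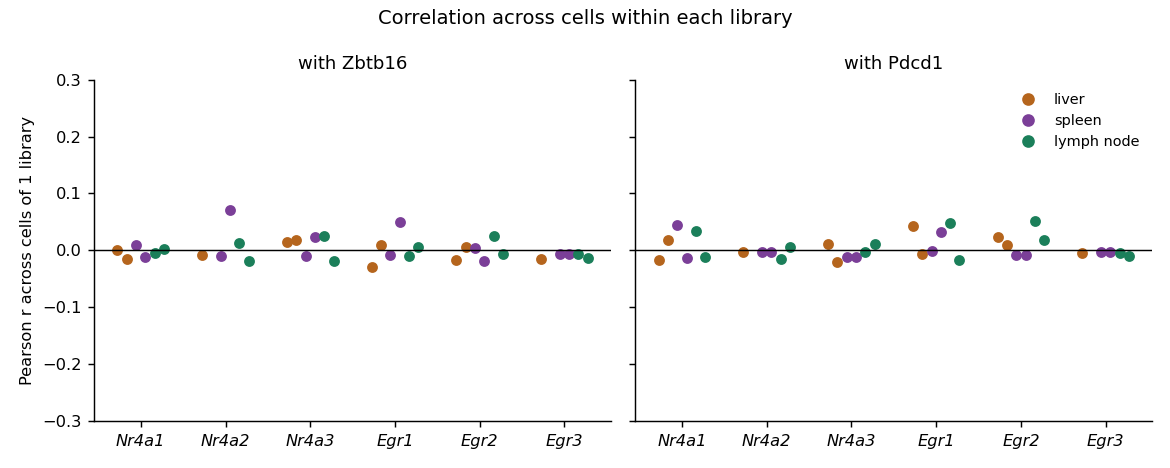
Pearson r across the cells of 1 library (vertical axis) between each member and Zbtb16 (left) or Pdcd1 (right), with 1 point per library coloured by organ. The points lie between -0.03 and 0.0713.

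Cells with and without a UMI of Zbtb16 or Pdcd1 were also compared within libraries at equal depth. Only Egr1 was frequent enough to be tested. It differed by -0.03 on the log2 scale for Zbtb16 (edgeR adjusted p = 0.998, with 0.165% of 7271 genes called) and by 0.25 for Pdcd1 (edgeR adjusted p = 0.916, with 0.333% of 6907 genes called). Neither passed the test. The median log2 fold over all genes was -0.04 for Zbtb16 and -0.27 for Pdcd1. In simulated counts the test recovered 58.2% of 2-fold changes for Zbtb16 and 14.7% for Pdcd1. Of 4-fold changes it recovered 89.9% and 68.6%, so differences of 2-fold and larger could be missed, above all for Pdcd1.

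By the mean r over 6 libraries among 7430 genes, the genes most like Nr4a1 were Tagap (0.106), Gadd45b (0.102), Nfkbid (0.0988), Nfkbia (0.0759) and Egr1 (0.0724). For Nr4a3 they were Tagap (0.0648), Nfkbia, Nfkbid, Gadd45b and Rilpl2, 4 of which are also on the list of Nr4a1. Egr2 had Egr1 (0.115), Tagap (0.112), Nfkbid, Cd69 and Srgn, and Egr1 had Ier2 (0.0616), Cd69, Dusp2, Tagap and Fos. Tagap was the gene on all 4 of these lists. The lists of Nr4a2 (Stx17, Ice2, Pus7, Relt and Rbm12b2) and Egr3 (Emc1, Mms19, Paf1, Recql and Xpo4) had positive r in 2 to 4 of 5 libraries and rest on few cells.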

How the data were processed

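Libraries were prepared with the Chromium Single Cell 3′ v2 chemistry, and per the labels the authors processed them with Cell Ranger 3.1.0 and mm10. The deposited matrices hold raw UMI counts per gene and barcode, not normalized, and their companion deposited lists give other values (barcodes, gene identifiers and symbols). The members, lists and tests were chosen with earlier results of these data known.

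Limits of the study on genes (300 to 4000) and on mitochondrial UMIs (15% at most) removed 55 barcodes, and analyses excluded 113 ribosomal protein, ribosomal RNA and haemoglobin genes. No doublets were removed in the main setting. Cells were clustered with scanpy 1.11.5 and leidenalg 0.10.2 (3000 variable genes, 20 components, resolution 0.5), without 73 genes. These were the members and the listed relatives, corepressors, AP-1, TCR-induced, tolerance and stress genes. Il4, Izumo1r and Gadd45b stayed in, because they are also class markers. Clusters were named from marker lists by thresholds set after the clusters were seen, so names need not match those of the study. Most lists needed a median log2 fold of at least 1 and 3 markers 2-fold up. The iNKT1-like name needed only a positive median in a cluster that met no other list. Within a cluster split again, the iNKT1-like and iNKT2-like names needed a median of 0.5. Clusters moved with the rounding of the arithmetic, so 1 set of arithmetic routines was fixed for all steps.

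UMIs were summed per library and organs compared in 1 fit with edgeR 4.0.16 in R 4.3.3 (filterByExpr minimum count 10, TMM, robust quasi-likelihood test). A call required an adjusted p (Benjamini-Hochberg over all genes tested) below 0.05. A negative log2 fold means a lower level in the organ named first. DESeq2 1.42.0 was an alternative. Cells were thinned to 1000 UMIs for shares (15457 cells, leaving out 1075 shallower ones). Intervals are 95% exact ones and, like floors of 3 counts, cover counting error only. In simulated counts the organ fit recovered 70.5% of 2-fold and 98.1% of 4-fold changes for liver against lymph node (10250 genes). Same-numbered replicates deviated with correlations of 0.0862, 0.0832 and 0.0680 between organs, which does not pair them.

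The genes named are the members, Zbtb16, Pdcd1, the 5 genes of highest mean correlation with each member, and genes among the 3 largest called changes of each list, with Nfkbid, Rxrb, Egr4, Hspa1a and Il4 also named. Gene locations are from GENCODE vM21 (GRCm38), and the annotation version behind the matrices is not given in the sources used here.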

Additional observations from a re-analysis of the deposited data

How the results depend on the processing

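Over all cells, Nr4a1, Egr1 and Egr2 kept direction and call against lymph node in all 16 alternatives, as did Nr4a3 in liver. In spleen Nr4a3 lost its call without lymph node replicate 1. Removing the 24 cells with B cell and myeloid markers was chosen after seeing the data. With the replicate block, Nr4a1 had folds of -3.34 in liver and -3.77 in spleen, and the calls of genes numbered 3070 (liver against spleen), 4170 and 2134 (liver and spleen against lymph node).

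Counts of called genes were lower with DESeq2, at 1447 for liver with spleen and 1141 for spleen with lymph node over all cells, then 825, 1012 and 349 in iNKT1-like and 35, 136 and 45 in iNKT17-like cells (liver against spleen, liver against lymph node, spleen against lymph node). Thinning cells to 1000 UMIs gave 1725 between liver and spleen. In iNKT1-like cells, a resolution of 0.3 gave 635 for liver against spleen and 931 for liver against lymph node, with most liver cells under another name. In iNKT17-like cells, keeping members in the clustering gave 35 and 58 for spleen against liver and lymph node, no filter 34 for liver against spleen, and resolution 1.0 gave 69 for spleen against lymph node. Another clustering seed, added after seeing the data, put a further cluster under the iNKT17-like name, with counts of 157, 921 and 237. Class names also moved with the rounding of the arithmetic, and in another run most liver iNKT1-like cells took the Gzma-like name. For Zbtb16-detected cells the main count of 12 became 0 (DESeq2), 42 (500 UMIs), 69 (no filter) and 720 (no thinning), and for Pdcd1-detected cells 23 became 0, 0, 160 and 860, with 449 and 653 genes at an unadjusted p below 0.05 in the main setting. The cause was not tested, except that cells differ in depth without thinning.

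Leaving out 1 library gave, in the order above, 1384 to 2418, 2399 to 4052 and 1015 to 1946 called genes over all cells, 1004 to 2260, 939 to 1906 and 407 to 776 in iNKT1-like, 18 to 56, 116 to 328 and 51 to 127 in iNKT17-like, and 13 to 34 in Pdcd1-detected cells. Some differences that missed the threshold changed sign. Between liver and spleen their left-out ranges were -0.18 to 0.93 (Nr4a1), -0.72 to 0.35 (Nr4a3), -0.24 to 0.13 (Egr1), -1.11 to 0.45 (Egr2) and -0.39 to 0.18 (Pdcd1), and in iNKT1-like cells -0.55 to 0.84 (Nr4a1), -0.03 to 0.25 (Egr1) and -1.55 to 0.61 (Egr2). Zbtb16 in liver against lymph node ranged from -0.19 to 0.09, and Egr1 from -0.45 to 0.14 in Zbtb16-detected and -0.84 to 0.81 in Pdcd1-detected cells.

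Other settings reversed Nr4a3 (0.03, libraries thinned) and Egr1 (0.02, no TMM) between liver and spleen, Zbtb16 between liver and lymph node (0.04 with thinned cells, 0.02 without TMM), and in iNKT1-like cells of liver against spleen Nr4a1 (-0.08 with members in the clustering), Egr1 (-0.68) and Egr2 (1.67, both at resolution 0.3), as well as Egr2 against lymph node (0.03, resolution 0.3). Egr1 became 0.08 (DESeq2) and 0.20 (500 UMIs) in Zbtb16-detected and -1.46 (500 UMIs) in Pdcd1-detected cells. The exact permutation p of the Egr3 share was 1.0 at 500 UMIs.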
